A study of Mus musculus with 4 samples.

Results

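The genes Myt1, Myt1l and St18 make up a small family of mouse transcription factors, and their accessibility was compared between oligodendrocyte progenitor cells (OPCs) and oligodendrocytes (OLs). The members were taken by name, as 3 of 21887 protein-coding genes with 1 interval on the build mm10. For each gene, the peaks of 4 deposited Omni-ATAC-seq lists were collected in the gene's interval plus 2 kb on each side and in 100 kb beyond that on both sides. Omni-ATAC-seq marks open chromatin by letting the Tn5 transposase insert sequencing adapters into accessible DNA. The 4 libraries were 1 of OPCs and 1 of OLs from each of 2 mouse epiblast stem cell lines, 129O1 and EpiSC5, so that n = 2 in each group. Strains 129SvEv and 129S1/SvImJ are given as the origin of the lines, and the labels name no transgene, deletion or drug treatment. All OPCs were derived from these pluripotent lines without SHH, grown in bFGF and PDGFA (20 ng/mL each), sorted after 4 passages for CD140a and NG2 and expanded, and the OLs were purified for the surface antigen O1. Each library was made from 50000 cultured cells, and the labels do not say whether a line's libraries came from separate differentiations. The p-values below therefore measure the spread between these libraries, which may be technical in part. The fit takes the spread of each gene largely from the other genes, not from that gene's 4 values alone.

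Myt1, Myt1l and St18 encode zinc finger proteins that bind a short core motif with the letters AAGTT and that mostly act as repressors, through partners such as the SIN3 and histone deacetylase complexes and the demethylase LSD1. Myt1 is present in neural progenitors and in the oligodendrocyte lineage. Myt1l is known as a neuronal factor that represses non-neuronal programmes, Notch pathway genes among them, and St18 is known from neurons, from pancreatic endocrine cells and from oligodendrocytes.

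Myt1 (gene ID 17932) spans chr2:181763332-181827775 (64.4 kb), Myt1l (17933) spans chr12:29527590-29923216 (395.6 kb), and St18 (240690) spans chr1:6487231-6860940 (373.7 kb). The annotation used gave gene intervals without exons, so regions are placed within or beside the gene and not by exon, intron or UTR. RefSeq start-site windows on GRCm38.p6, the assembly named mm10, were at hand for 2 of the 3 members, with 3 windows for Myt1 and 5 for Myt1l, all on the + strand. Both windows below are the 250 bases before a Myt1 start and are shown because 1 had no peak in any library while the other lay in a region open in all 4. Capitals mark the AAGTT core of the family's motif on the strand shown.
Myt1 outer start, chr2:181763082-181763331: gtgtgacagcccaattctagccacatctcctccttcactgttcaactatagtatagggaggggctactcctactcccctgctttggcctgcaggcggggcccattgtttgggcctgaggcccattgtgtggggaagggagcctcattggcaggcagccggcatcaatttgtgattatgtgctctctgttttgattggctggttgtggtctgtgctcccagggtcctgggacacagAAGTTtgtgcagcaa
Myt1 inner start, chr2:181796057-181796306: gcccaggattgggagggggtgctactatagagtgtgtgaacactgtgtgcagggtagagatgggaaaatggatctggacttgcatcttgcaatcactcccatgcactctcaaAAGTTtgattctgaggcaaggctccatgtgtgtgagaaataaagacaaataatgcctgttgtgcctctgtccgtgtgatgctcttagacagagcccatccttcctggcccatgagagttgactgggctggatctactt
No base of the outer window was covered by a peak in any of the 4 lists, and the same held for the Myt1 window not shown (chr2:181766779-181767028). Of the 250 bases of the inner window, 247 were covered in the 129O1 OPC library, 227 in EpiSC5 OPC, 216 in 129O1 OL and 228 in EpiSC5 OL, so this start did not separate the cell types. Among the 5 Myt1l windows, 1 (chr12:29534655-29534904) had 67 covered bases in the EpiSC5 OL library, and no library had a peak in the other 4. AAGTT was searched on both strands, where the other strand reads AACTT, and 35.33% of all 32851 windows of this length held it. Each Myt1 window held it, and of the Myt1l windows only chr12:29534655-29534904 and chr12:29534972-29535221 did. A match is a string of letters here and not a bound site.

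The lists held 125002 to 152595 peaks covering 35.02 to 44.11 Mb, with a median peak width of 190 to 237 bp. They are peak lists without read counts, so the depth behind a peak is unknown, and no peak means only that none passed the caller's threshold. The unit used below is the covered sequence of a gene, that is the base pairs of the interval under peaks, scaled to the mean total of the lists where stated. In libraries made from many cells, fewer cells with an open site and less opening per cell cannot be told apart. With 2 libraries against 2, the smallest two-sided permutation p for a single value is 0.333, so tests rest on a limma fit over all 14543 genes with enough coverage, of which 11.0% were called higher in OL and 8.63% lower (Benjamini-Hochberg adjusted p under 0.05).

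St18 gained peak coverage in oligodendrocytes, and the other 2 members did not pass the test in either direction. The St18 interval had 1928 bp under peaks in the 129O1 OPC library and 2157 bp in EpiSC5 OPC. It had 5186 bp in 129O1 OL and 5551 bp in EpiSC5 OL. Both OL libraries therefore lay far above both OPC libraries, and the gap between groups was much wider than the gap within either. The number of St18 peaks went from 7 in each OPC library to 25 in 129O1 OL and 22 in EpiSC5 OL. After scaling, the interval had 1.96 ± 0.03 kb under peaks in OPC (SD, n = 2) and 5.62 ± 0.37 kb in OL (SD, n = 2). On the log2(bp + 200) scale, which understates changes of low values, the difference was 1.43 (SE 0.15; 95% interval 1.12 to 1.73), which is 2.69-fold, with an adjusted p of 4.63e-06 in limma. It was 1.48 in 129O1 and 1.37 in EpiSC5, and St18 had the 57th largest rise of the 14543 genes. The call held under all 16 alternative settings, in which the log2 difference ran from 0.99 to 1.49. The limma adjusted p rose to 0.0394 without scaling, 0.0209 by number of peaks and 0.00541 with cell line as a block.

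**Figure D1:**
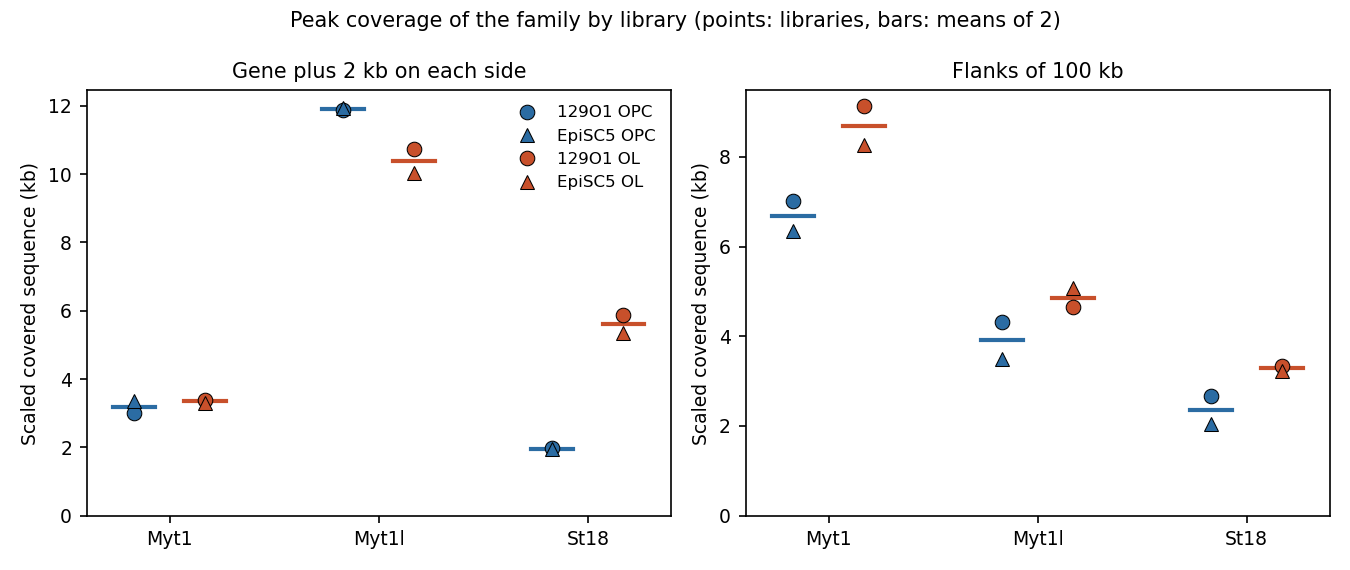
Scaled covered sequence in kb (y axis, from 0) of the 3 genes (x axis), in the gene plus 2 kb on each side (left) and in the 100 kb flanks (right). Points are single libraries, with circles for 129O1, triangles for EpiSC5, blue for OPC and orange for OL, and bars are means of 2; in the left panel only the St18 groups stand far apart, at 1.96 and 5.62 kb.

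Myt1l had 11536 bp under peaks in 129O1 OPC, 13262 bp in EpiSC5 OPC, 9459 bp in 129O1 OL and 10410 bp in EpiSC5 OL, in 47, 49, 38 and 48 peaks. Both OL libraries were below both OPC libraries. The scaled means were 11.91 ± 0.06 kb in OPC and 10.39 ± 0.49 kb in OL (SD, n = 2 each), a log2 difference of -0.19 (SE 0.11; 95% interval -0.43 to 0.05) with an adjusted p of 0.272 in limma, so a fall of Myt1l was not established. The interval leaves room for a fall to 0.74 of the OPC level. Myt1 had 2922 bp in 129O1 OPC, 3733 bp in EpiSC5 OPC, 2991 bp in 129O1 OL and 3430 bp in EpiSC5 OL, in 9, 6, 12 and 12 peaks. Its groups overlapped in covered sequence. The OL peaks of Myt1 were narrower, with median widths of 268 and 519.5 bp in OPC and 167.5 and 215 bp in OL. Over the whole lists the median widths were 201 and 237 bp in OPC and 190 and 192 bp in OL. The direction was thus the same in the whole lists, while the drop was larger in Myt1. The Myt1 medians rest on 9 and 6 peaks in OPC and 12 in each OL library, and this contrast was not tested. The scaled means of Myt1 were 3.19 ± 0.25 kb in OPC and 3.35 ± 0.06 kb in OL (SD, n = 2 each), a log2 difference of 0.07 (SE 0.15; 95% interval -0.24 to 0.38; adjusted p 0.82 in limma). By number of peaks the log2 difference was 0.52 (adjusted p 0.185), and with 20 kb on each side it was 0.26 (adjusted p 0.138), so neither passed. The lines differed in sign for Myt1, at 0.16 in 129O1 and -0.022 in EpiSC5, and without the 129O1 OPC library the difference was -0.0052. Whether the response of St18 differed from that of Myt1 or Myt1l was not tested.

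Set per length, the order of the genes was the same in all 4 libraries. Myt1 was the most open, with 4.27% to 5.45% of its interval under peaks. Myt1l followed with 2.37% to 3.32%. St18 was lowest, with 0.51% and 0.57% in OPC and 1.37% and 1.47% in OL, so that even in OL its share stayed under that of Myt1l.

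**Figure D2:**
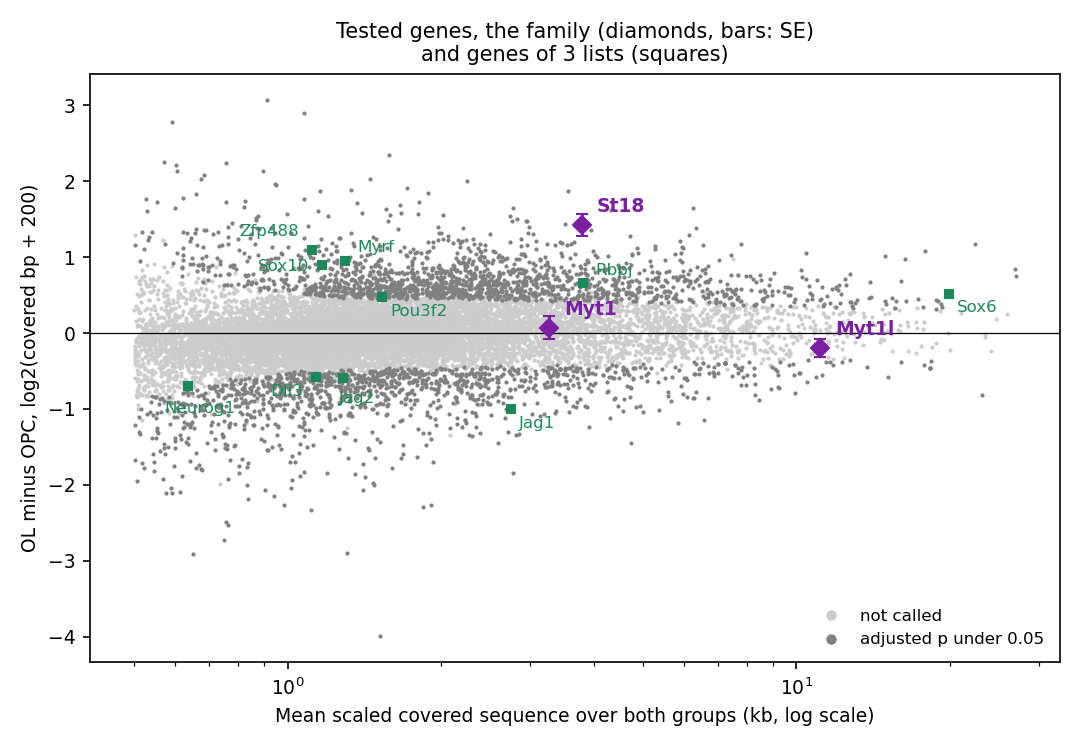
Log2 difference of OL minus OPC (y axis, log2(covered bp + 200)) against the mean scaled covered sequence in kb (x axis, log scale) for the 14543 tested genes, light grey where not called and dark grey where the adjusted p was under 0.05. Purple diamonds with SE bars are the family, with St18 at 1.43, Myt1 at 0.07 and Myt1l at -0.19, and green squares are the named Notch, proneural and lineage factor genes.

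Overlapping peaks of the 4 lists were merged into regions, of which 28 lay in the St18 interval. An OL-only region had a peak in both OL lists and in no OPC list, an OPC-only region the reverse, and a shared region had a peak in all 4 lists. St18 had 13 OL-only regions (46.4% of its regions), 1 OPC-only region, 4 shared regions, 2 others with peaks in 2 or 3 lists and 8 seen in 1 list. Over all protein-coding gene intervals, 16.8% of 141580 regions were OL-only and 8.84% were OPC-only. As many OL-only regions were found in 235 of the tested genes (1.62%), but per 100 kb of sequence St18 had 3.44, a density reached by 27.4% of the tested genes. These counts use the same peaks as the coverage above and are a description of it. The OL-only regions held 3223 bp of the St18 coverage in 129O1 OL and 3605 bp in EpiSC5 OL (62.2% and 64.9%). Outside them, 129O1 OPC had 1928 bp and EpiSC5 OPC had 2157 bp, and 129O1 OL had 1963 bp and EpiSC5 OL had 1946 bp, values that overlap. Leaving out regions defined by having no OPC peak lowers the OL values alone, so this overlap does not test where the rise lies.

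The most covered OL-only region of St18 was chr1:6509903-6510753, which began 22.67 kb into the gene from its lower-coordinate end. It had 813 bp under a peak with a fold enrichment of 10.1 in 129O1 OL, and 821 bp with a fold of 11.6 in EpiSC5 OL. Fold enrichments are the authors' own, and the median over all peaks of a list was 6.68 to 6.86. The next by covered sequence was chr1:6658123-6658550, at 170.9 kb, with 428 bp in 129O1 OL and 297 bp in EpiSC5 OL. The third was chr1:6487042-6487388, which spans the lower-coordinate end of St18 and had 341 bp (fold 6.47) in 129O1 OL and 322 bp (fold 7.23) in EpiSC5 OL. A neighbour at chr1:6487763-6488073 was OL-only too, with 282 and 285 bp. Within 1 kb of this gene end, the OPC libraries had 0 bp each, 129O1 OL had 797 bp and EpiSC5 OL had 607 bp. Such an end, with peaks of both OL lists and of no OPC list, occurred in 4.74% of the tested genes, and the reverse in 3.58%. The widths of the 13 regions ran from 137 to 851 bp, with a median of 256 bp. The OPC-only region of St18, chr1:6717864-6718132, had 220 bp (fold 7.05) in 129O1 OPC and 211 bp (fold 5.44) in EpiSC5 OPC.

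The position of the St18 peaks also differed. Below the midpoint of the gene, on its lower-coordinate side, coverage was 0 bp in 129O1 OPC and 100 bp in EpiSC5 OPC, against 2519 bp in 129O1 OL and 2882 bp in EpiSC5 OL. Above the midpoint it was 1928 and 2057 bp in OPC and 2304 and 2505 bp in OL, so the groups lay much closer there. The lower-coordinate side thus held 0% and 4.64% of the coverage in OPC and 52.2% and 53.5% in OL. The 100 bp in EpiSC5 OPC belonged to 1 peak, in chr1:6594461-6594754, a region with 264 bp in 129O1 OL (fold 12.5) and 294 bp in EpiSC5 OL (fold 14.9). The longest stretch without a peak was 232.7 kb in 129O1 OPC and 123.1 kb in EpiSC5 OPC, and 63.1 and 58.6 kb in the OL libraries. The OL-only regions were not confined to the lower-coordinate side, with 6 of them below the midpoint, 6 above it and the 1 at the gene end. All 4 shared regions lay above it, at chr1:6729273-6729554, chr1:6760603-6761101, chr1:6805026-6805596 and chr1:6859103-6859267.

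**Figure D3:**
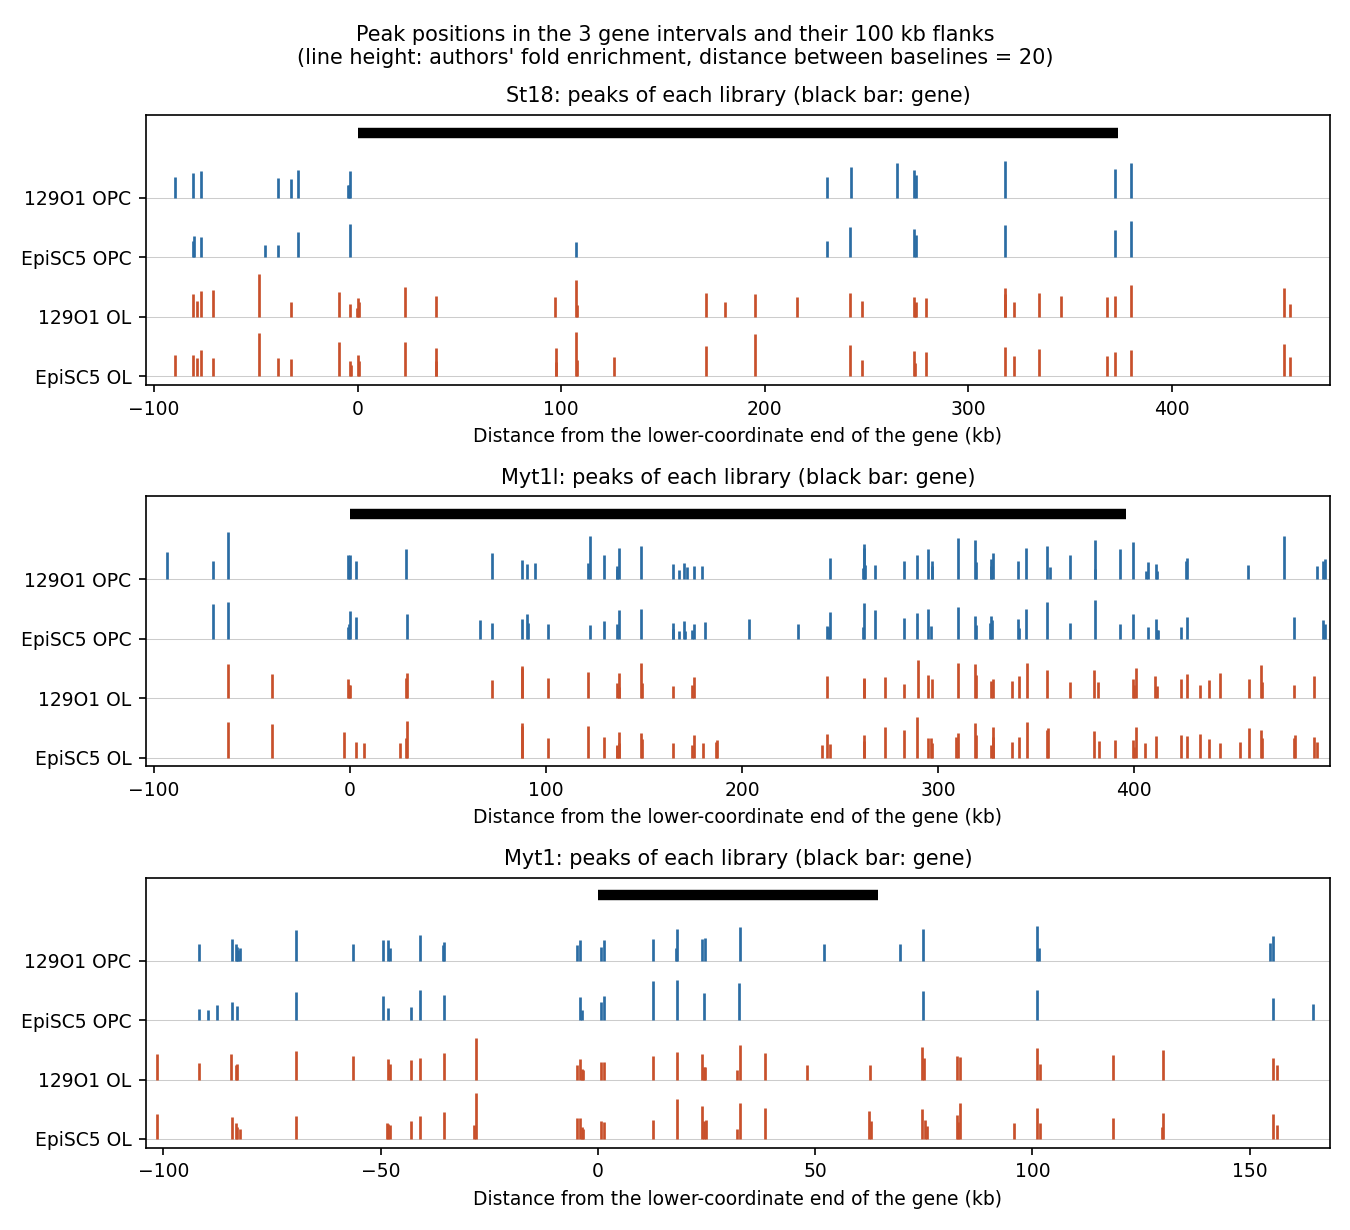
Peaks of each library (rows) in St18, Myt1l and Myt1 and their flanks, placed by distance in kb from the gene's lower-coordinate end (x axis), with the gene as a black bar. Line height is the authors' fold enrichment, with 20 as the distance between baselines; over the first 230 kb of St18 the OPC rows (blue) show 1 peak and the OL rows (orange) many.

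**Figure D4:**
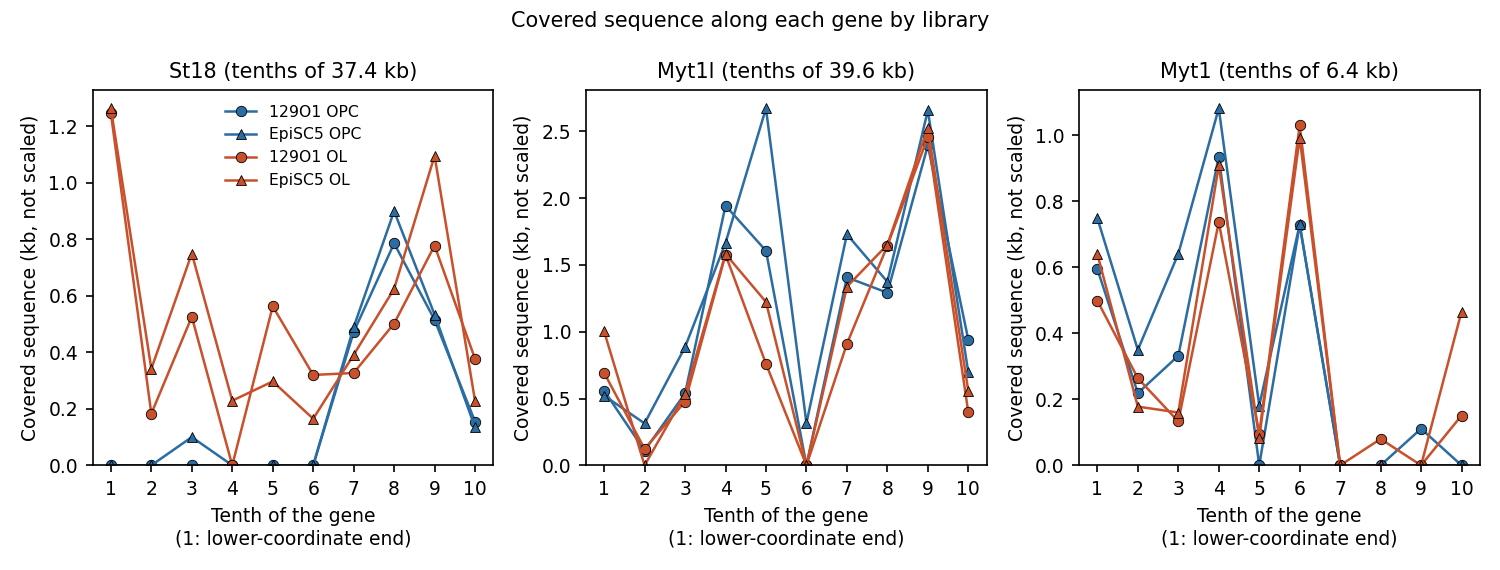
Covered sequence in kb, not scaled (y axis, from 0), in 10 equal segments of each gene counted from its lower-coordinate end (x axis), with 1 line per library (circles for 129O1, triangles for EpiSC5, blue for OPC, orange for OL). In the first segment of St18 the OPC libraries had 0 bp and the OL libraries 1247 and 1264 bp, while all 4 libraries had coverage in the first segment of Myt1l and of Myt1.

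In Myt1l, 71 regions were found, with 20 shared, 8 OPC-only (11.3%), 5 OL-only (7.04%), 12 others with peaks in 2 or 3 lists and 26 seen in 1 list. The OPC-only share is near the 8.84% of all regions in genes, and the OL-only share is under their 16.8%. Only 72 tested genes (0.495%) had as many shared regions, yet 59.7% of all tested genes had as many per 100 kb. The most covered OPC-only region was chr12:29697689-29698484, with 728 bp (fold 5.49) in 129O1 OPC and 790 bp (fold 6.13) in EpiSC5 OPC. The next was chr12:29617801-29618070, with 165 and 270 bp. The third was chr12:29649809-29650099, with 291 and 109 bp. The most covered OL-only regions were chr12:29800027-29800507 (326 bp in 129O1 OL and 481 bp in EpiSC5 OL), chr12:29615001-29615237 (206 and 237 bp) and chr12:29676611-29676797 (108 and 187 bp). Myt1l thus held regions of both kinds inside its interval. The region chr12:29676611-29676797 also lies within the long noncoding RNA gene C630031E19Rik (chr12:29675630-29686445), so it cannot be assigned to 1 of the genes. With 1 library left out, which makes a group's class rest on 1 list, Myt1l had 10 to 18 OPC-only and 5 to 15 OL-only regions, the most without 129O1 OPC and without 129O1 OL.

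The lower-coordinate end of Myt1l varied between the OL libraries. Within 1 kb of it, 129O1 OPC had 802 bp under peaks, EpiSC5 OPC had 544 bp, 129O1 OL had 455 bp and EpiSC5 OL had 0 bp. The regions there, chr12:29526451-29526711 and chr12:29527045-29527787, were thus in 3 of the 4 lists and in neither class. The long noncoding RNA gene Gm20208 (chr12:29526958-29531102) overlaps this end, so its peaks cannot be assigned to 1 of the genes. No library had a peak within 1 kb of the upper-coordinate end of any member.

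In Myt1, 6 of 11 regions were shared, 2 were OL-only, none was OPC-only and 3 were seen in 1 list. The shared regions held 2811 of the 2922 bp in 129O1 OPC and all 3733 bp in EpiSC5 OPC, and 2411 and 2658 bp in the OL libraries. The one with the smallest q value in every list was chr2:181795356-181796303, which holds most of the inner start window printed above. It had 729 bp (fold 11.3) in 129O1 OPC, 911 bp (fold 12.5) in EpiSC5 OPC, 778 bp (fold 11.6) in 129O1 OL and 771 bp (fold 12.0) in EpiSC5 OL, so the groups overlapped. The OL-only regions were chr2:181801578-181801926, with 349 bp (fold 9.04) in 129O1 OL and 306 bp (fold 10.4) in EpiSC5 OL, and chr2:181825979-181826223, with 151 and 242 bp. The lower-coordinate end of Myt1 had 327, 351, 315 and 445 bp within 1 kb in 129O1 OPC, EpiSC5 OPC, 129O1 OL and EpiSC5 OL.

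Shared regions had less sequence under peaks in OL than in OPC in both lines for 3 of 6 in Myt1, 11 of 20 in Myt1l and 3 of 4 in St18. They had more in both lines for 0, 7 and 0. These base pairs were not scaled, and the list totals were lower in OL too. The totals were 38.63 and 44.11 Mb in 129O1 and EpiSC5 OPC and 35.02 and 41.2 Mb in OL. Over all protein-coding genes, 58.7% of 37919 shared regions had less in OL and 16.6% had more. Less covered regions of Myt1 and Myt1l are thus no more frequent than in other genes, and the 7 more covered ones of Myt1l are above the second share. In the St18 shared regions, scaled coverage was 1.37 and 1.26 kb in OPC and 1.15 and 1.17 kb in OL. The lists themselves define which regions are shared, so these values describe that class and do not test where the rise of St18 lies.

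Outside the genes, flanks of 19003 genes were fitted in the same way, of which 8.33% were higher in OL and 9.07% lower. The flanks of Myt1 had 7.01 kb in 129O1 OPC, 6.35 kb in EpiSC5 OPC, 9.12 kb in 129O1 OL and 8.27 kb in EpiSC5 OL after scaling, with no overlap between the groups. The log2 difference was 0.37 (SE 0.10; adjusted p 0.0325 in limma) and 0.37 in each line. This call was lost without scaling, with the best 50% of peaks, with 200 bp around summits and with flanks of 50 kb (log2 0.25 to 0.46). It was also lost without EpiSC5 OPC (0.30, adjusted p 0.109), without 129O1 OL (0.30, adjusted p 0.173) and without EpiSC5 OL (0.44, adjusted p 0.0897). The St18 flanks had 2.68 and 2.04 kb in OPC and 3.33 and 3.24 kb in OL, a log2 difference of 0.46 (SE 0.18; adjusted p 0.105 in limma). With cell line as a block the adjusted p was 0.0484, without 129O1 OPC the difference was 0.64 (adjusted p 0.0286), and with flanks of 50 kb it was 0.047. The Myt1l flanks had 4.32 and 3.49 kb in OPC and 4.65 and 5.07 kb in OL (log2 0.31, SE 0.14, adjusted p 0.153 in limma), and without 129O1 OPC the difference was 0.45 (adjusted p 0.0401).

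The flanks held 36 regions for Myt1 (8 OL-only and 1 OPC-only), 30 for Myt1l (10 and 4) and 18 for St18 (6 and 1). Of all regions of the 4 lists, 15.6% were OL-only and 9.89% OPC-only. The most covered OL-only flank region of St18 was chr1:6438488-6439017, 48.2 kb outside the gene, with 530 bp (fold 14.2) in 129O1 OL and 502 bp (fold 14.5) in EpiSC5 OL. For Myt1 it was chr2:181661351-181662254, with 858 and 890 bp, and for Myt1l chr12:29928052-29928531, with 459 and 461 bp. The Myt1l flank region lies within the long noncoding RNA gene Gm31939 (chr12:29925005-29937987), and the St18 one within the pseudogene Gm19026 (chr1:6429658-6441296). Of the protein-coding genes in these flanks, Pxdn, which encodes a peroxidase of the extracellular matrix and lies 13426 bp from Myt1l, went from 2.44 ± 0.03 kb in OPC to 3.45 ± 0.18 kb in OL (SD, n = 2 each; log2 0.47, adjusted p 0.0328 in limma). This call was lost in each of the 4 fits without 1 library (adjusted p 0.0679 to 0.185, the highest without EpiSC5 OL) and under 5 other settings. None of the 5 tested genes beside Myt1 (Tcea2, Rgs19, Oprl1, Pcmtd2 and Polr3k) passed the test, and Sox18 and Lkaaear1 had too little coverage for it. Alkal1 beside St18 had a log2 difference of -0.07 (adjusted p 0.875).

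The tested genes whose values over the 4 libraries were nearest to St18, by the distance between log2 values centred on each gene's mean, were Sytl5 (0.09), Gm41607 (0.11) and Rnf130 (0.12). Rnf130, which encodes a ubiquitin ligase, had 1.56 kb in OPC and 4.41 kb in OL. For Myt1 they were Supt6, Smad4 and Dis3l, and for Myt1l Nxpe3, Sptbn4 and Cuedc1, at distances of 0.01 to 0.03. The distances rest on 4 libraries, and nothing is read from them beyond the values.

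Genes that work with the family were followed in the same fit, where 11.0% of all tested genes were higher in OL and 8.63% lower. None of the 7 corepressor partners (Sin3a, Sin3b, Hdac1, Hdac2, Kdm1a, Rcor1 and Rcor2) passed the test, and their median log2 difference was -0.02, as was the median of all genes. The largest differences among them were those of Kdm1a, which encodes LSD1 (0.42, adjusted p 0.121), and Sin3a (0.36, adjusted p 0.109), and Kdm1a passed without 129O1 OPC (0.68, adjusted p 0.00676). Of 13 Notch pathway genes, 1 was higher in OL and 3 were lower, with a median of -0.10. The lower ones were all ligands. Jag1 fell from 3.45 and 4.00 kb in 129O1 and EpiSC5 OPC to 1.95 and 1.58 kb in OL (log2 -1.003, SE 0.16, adjusted p 2.85e-04). Dll3 fell from a mean of 1.40 to 0.87 kb (adjusted p 0.0208), and Jag2 from 1.57 to 1.00 kb (adjusted p 0.0474). Rbpj, the DNA-binding factor of the pathway, rose from 2.93 and 2.89 kb to 4.86 and 4.57 kb (log2 0.66, SE 0.14, adjusted p 0.00322), but with the best 50% of peaks it missed the threshold (0.37, adjusted p 0.218). The target gene Hes1 had a difference of -0.14 (adjusted p 0.641).

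Of 5 tested genes of the list named proneural factors, activators of neuronal genes, none passed the limma test, and the median was -0.35. The list also takes in Pou3f2, a POU homeodomain factor that is not proneural in the strict sense. The differences furthest from 0 were those of Neurog1 (0.84 ± 0.22 kb in OPC and 0.44 ± 0.08 kb in OL; log2 -0.70, adjusted p 0.0696, unadjusted 0.0153) and Pou3f2 (1.25 ± 0.21 kb in OPC and 1.81 ± 0.29 kb in OL; log2 0.47, adjusted p 0.059, unadjusted 0.0123), the 2 with an unadjusted p under 0.05. Pou3f2 passed with the replicate block (line; adjusted p 0.029), without 129O1 OPC (0.0421) or EpiSC5 OL (0.0346), with the best 50% of peaks (0.0464) and in the gene without its sides (0.0127). It was lower in OL by number of peaks (log2 -0.47), by 200 bp around summits (-0.47) and with 20 kb on each side (-0.13). The calls of Dll3 and Jag2 depended on single libraries and on the measure. Dll3 was lost without 129O1 OPC (adjusted p 0.109), EpiSC5 OPC (0.167) or EpiSC5 OL (0.0877), and Jag2 without 129O1 OPC (0.376) or EpiSC5 OL (0.473). Jag2 was higher in OL by number of peaks (log2 0.27) and by 200 bp around summits (0.27), and it missed the threshold without scaling, with median-of-ratios scaling, with lists of equal length, without a filter, with a pseudocount of 50 bp and in the gene without its sides (adjusted p 0.0512 to 0.169). Dll3 was at log2 -0.10 by number of peaks and by summits (adjusted p 0.836 and 0.831), and it also missed the threshold with the best 50% of peaks (0.191), without a filter (0.0563) and with 20 kb on each side (0.0574). Of 12 tested oligodendrocyte lineage factors, 4 were higher in OL and 1 lower, with a median of 0.21. Of all tested genes, 11.0% were higher and 8.63% lower. Zfp488 rose from 0.50 and 0.80 kb to 1.57 and 1.60 kb (log2 1.09, adjusted p 6.44e-04), Myrf, an activator of myelin genes, from 0.76 and 0.88 kb to 1.63 and 1.92 kb (0.96, adjusted p 6.56e-04), Sox10 from 0.73 and 0.78 kb to 1.48 and 1.68 kb (0.90, adjusted p 0.00117) and Sox6 from 16.95 and 15.73 kb to 22.78 and 24.23 kb (0.52, adjusted p 0.00122). Nkx2-2 was the lower one (-0.67, adjusted p 0.0064), named because it was the only one. It missed the threshold without 129O1 OPC (-0.55, adjusted p 0.099) and with 20 kb on each side (-0.29, adjusted p 0.198), and turned to 0.062 with the best 50% of peaks. By 200 bp around summits, Jag1 (-0.67, adjusted p 0.0956), Zfp488 (0.19), Myrf (0.59) and Sox10 (0.028) missed the threshold, by number of peaks the same 4 and Sox6 did (adjusted p 0.0699 to 0.99), and without scaling Rbpj, Zfp488, Myrf, Sox10 and Sox6 did (adjusted p 0.063 to 0.193). St18, with the larger rise of 1.43 in the main fit, passed under each of these settings. With the best 50% of peaks its difference was 0.99, below Sox10 (1.61) and Zfp488 (1.32) and above Myrf (0.80) and Sox6 (0.55). The difference between St18 and these genes was not tested.

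Markers of the cell types were read the same way, as gene intervals and not as expression. The counts below stand beside 11.0% of all tested genes higher in OL and 8.63% lower. Of 6 tested oligodendrocyte markers 4 were higher in OL and none lower, with a median of 1.055. Among them Enpp6, a marker of newly formed oligodendrocytes, rose from 2.14 to 5.18 kb (log2 1.20, adjusted p 2.15e-05) and Ugt8a, an enzyme of myelin lipid synthesis, from 2.19 to 4.29 kb (0.91, adjusted p 3.61e-04). Enpp6 missed the threshold by number of peaks (0.82, adjusted p 0.0571). Mobp (1.56) and Mag (1.76) were the others, and Mog was not tested. Both missed the threshold without scaling, with median-of-ratios scaling, without a filter, by number of peaks and by summits (adjusted p 0.0599 to 0.289), Mag also with a pseudocount of 50 bp (0.0521), and Mobp also with the best 50% of peaks (0.0945) and with lists of equal length (0.0507). Mobp differed by 2.54 in 129O1 and 0.58 in EpiSC5, and was at 0.65 without 129O1 OPC and 2.44 without EpiSC5 OPC. None of 5 OPC markers passed, Pdgfra and Lhfpl3 having log2 differences of 0.26 and 0.34, with a median of 0.09, though Lhfpl3 passed by 200 bp around summits (0.60, adjusted p 0.0464) and in the gene without its sides (0.37, adjusted p 0.0465). Of 9 tested neuron markers 3 were lower in OL and none higher, with a median of -0.06, and Stmn2, Slc17a6 and Neurod2 had too little coverage for the test. The summed coverage of that list was 28.75 and 32.74 kb in OPC and 29.14 and 28.36 kb in OL, so the groups overlapped. The lower ones, Snap25 (-0.62), Gad2 (-0.75) and Map2 (-0.38), each lost the call without EpiSC5 OL, and also without EpiSC5 OPC (Snap25 and Map2), 129O1 OPC (Gad2) or 129O1 OL (Map2), with adjusted p of 0.0758 to 0.221. All of them missed the threshold by number of peaks, by summits and with 20 kb on each side (adjusted p 0.0664 to 0.669), Gad2 and Map2 also under both other scalings and without a filter (0.0649 to 0.158), Gad2 with lists of equal length (0.0758), and Map2 with the replicate block (0.0539). Of 8 astrocyte markers 2 were lower and none higher, with a median of -0.11, namely Gja1 (log2 -1.22, adjusted p 3.60e-04) and Slc1a3 (-0.55, adjusted p 0.0125), but by number of peaks Gja1 was at -0.76 (adjusted p 0.174). Slc1a3 missed the threshold without 129O1 OL (adjusted p 0.0559) or EpiSC5 OL (0.0676), without scaling (0.0736), by number of peaks (0.325) and by summits (0.323). The list's summed coverage was 16.17 and 16.43 kb in OPC and 13.74 and 14.19 kb in OL. All list medians but that of the oligodendrocyte markers changed sign under 1 or more alternatives, for example to 0.48 for the corepressor partners and 0.17 for the Notch genes by number of peaks, -0.018 for the lineage factors and 0.06 for the proneural factors by summits, 0.076 for the astrocyte and 0.021 for the neuron genes with the best 50% of peaks, -0.026 for the OPC markers without scaling, 0.17 and 0.083 for the neuron genes without EpiSC5 OPC and without EpiSC5 OL, and 0.012 for the proneural factors without EpiSC5 OL and 0.32 without the sides of genes. The part of other cell types in the values of the family was not tested.

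**Figure D5:**
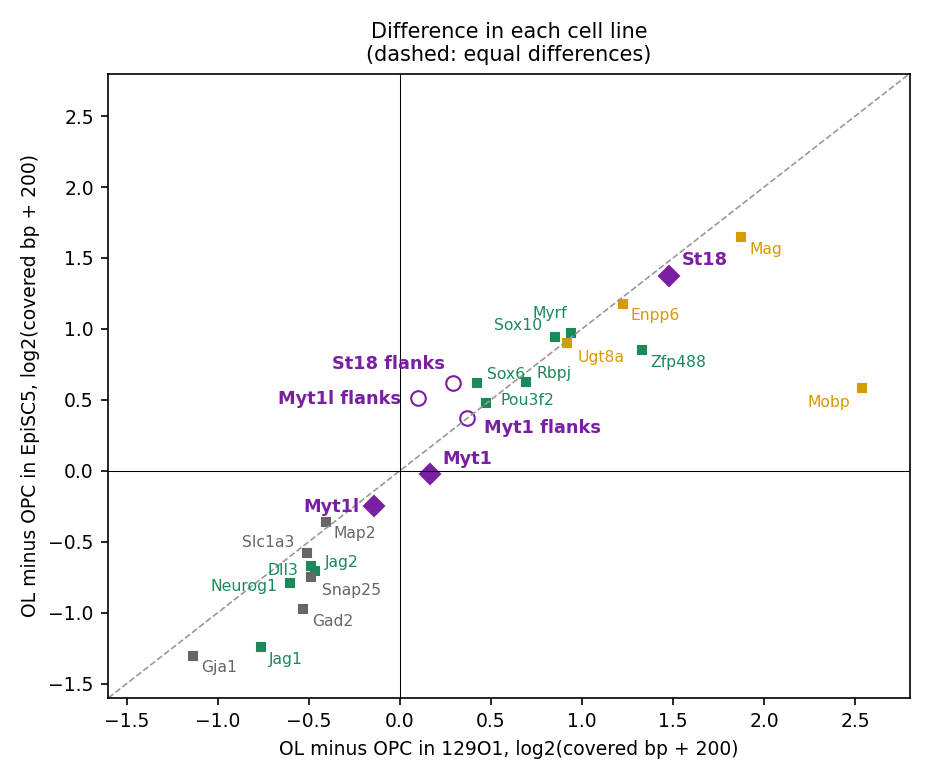
Log2 difference of OL minus OPC in EpiSC5 (y axis) against that in 129O1 (x axis), on the log2(covered bp + 200) scale, for the family (purple diamonds), its flanks (open purple circles), named Notch, proneural and lineage genes (green), oligodendrocyte markers (yellow) and neuron and astrocyte markers (grey). St18 lies at 1.48 and 1.37 near the dashed line of equal differences, Myt1 lies just below the horizontal zero line at -0.022, and both Myt1l values are negative.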

How the data were processed

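Chromatin accessibility was measured in 4 libraries, 1 of OPCs and 1 of OLs from each of 2 lines. Per the labels' protocols, nuclei met Tn5 for 30 min at 37 °C, and sequencing was single-end (50 bp, a stated 100 M reads per sample). The submitters' processing notes list MACS2, Picard, Bowtie2 2.3.2 and Trim Galore 0.3.1, and the build mm10. Not given in the sources used here are the caller's version and threshold, how duplicates were treated and any shift for the Tn5 cut. Each library has its own peak list, and whether the authors also pooled replicates is not stated in the sources used here. For each peak the deposited columns give a score (the whole part of 10 times −log10 q), a linear fold enrichment (a ratio) and −log10 p and q values, which were used only within a list.

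Covered base pairs of each protein-coding gene (RefSeq intervals, GRCm38.p6, plus 2 kb on each side) were scaled to the mean total of the lists, and log2(bp + 200) was taken for genes with a mean of 500 bp or more. OL and OPC were compared with limma 3.58.1 under R 4.3.3 (moderated two-sided test with trend, Benjamini-Hochberg, threshold 0.05) over all 4 libraries, tested on simulated data. Flanks of 100 kb were treated alike, and they overlap other genes. Regions are peaks of the 4 lists merged where they overlap or touch. Same-numbered libraries share a cell line, and their deviations from the group means correlated at 0.287 over genes and 0.348 over flanks, so the line pairs them; the fit with the line as a block is an alternative.

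The members and lists were chosen with earlier results of these data known, and a few list genes are not reported here. Genes named are the 3 members, up to 4 called genes of each list (2 by size of difference where none was called), the 3 nearest genes by values, genes in the flanks, and the 3 OL-only and 3 OPC-only regions with most coverage per member. Nkx2-2, Mag and Hes1, and a few regions of St18 and Myt1, were named after their values were seen, though Mag also meets the rule for called genes.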

Additional observations from a re-analysis of the deposited data

Results flagged for a closer look

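The Myt1 interval is listed here because its difference had opposite signs in the 2 cell lines. The log2 difference of OL minus OPC was 0.16 in 129O1 and -0.022 in EpiSC5, and the difference between the lines was not tested. The standard error of the pooled difference was 0.15.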

How the results depend on the processing

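The number of genes called was 583 without scaling, 560 by number of peaks, 742 by 200 bp around summits and 1632 with the best 50% of peaks, against 2857. Flank calls were 2160, 2062, 1963 and 1955 under the same settings and 5668 with the replicate block (cell line), against 3306, and from 634 to 3651 with 1 library left out (the fewest without EpiSC5 OL). Of the genes called, 56.07% were higher in OL, against 33.79% without scaling, 71.07% by number of peaks and 69.54% by summits; of the flanks called the share was 47.85%, and 19.86% without scaling, which moved the median of all genes to -0.13 and of all flanks to -0.15. With 1 library left out, the lone sample of a group is assumed to vary like the others.

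The Myt1 interval turned to -0.042 without scaling and to -0.024 with the best 50% of peaks, rose to 0.52 by number of peaks and by summits and to 0.26 with 20 kb sides, all short of the threshold, and ran from -0.0052 to 0.15 with 1 library left out. The Myt1 flanks missed the threshold without scaling (0.25), by summits (0.45), with the best 50% (0.46) and with 50 kb flanks (0.35), and ran from 0.30 to 0.44 with 1 library left out. The St18 flanks (0.46) passed with the replicate block, which changed no other call of a member, and ran from 0.27 to 0.64, and the Myt1l flanks from 0.16 to 0.45, with 1 library left out. Jag2 was reversed by number of peaks (0.27) and by summits (0.27), Pou3f2 by number of peaks (-0.47), by summits (-0.47) and with 20 kb on each side (-0.13), and Nkx2-2 with the best 50% (0.062).

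With the best 50% of peaks, Myt1 had 1 OL-only region, Myt1l 4 OPC-only and 9 shared regions, and St18 5 OL-only, 2 OPC-only and 2 shared regions; the lower-coordinate side of St18 then took 66 percentage points more of the coverage in OL, and 34.93 by summits, against 50.55. By summits Myt1 had 4 OL-only regions, and it had 1 OPC-only region where 25% of a region had to be covered. With 1 library left out, Myt1 had 0 to 2 OPC-only regions, Myt1l 5 to 15 OL-only and 10 to 18 OPC-only regions, and St18 1 to 2 OPC-only regions. Of 530 other values for named genes and lists, 384 kept their side of the threshold or moved little, 86 fell short of the threshold, 8 passed it, 46 moved and 6 were reversed. Depth is unknown, so a missing peak may be a site just under the caller's threshold, and 2 libraries a group limit every comparison.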
